A study of Forsythia suspensa with 2 samples.

Results

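Loci of the Forsythia suspensa assembly for which 8 or more transcripts were listed are described here across flower and leaf. A locus is the identifier of a transcript up to its transcript number, so that TR28964|c1_g1 names the locus of all transcripts whose identifiers continue from there with i and a number. There were 182 such loci with 1786 transcripts, which is 0.268% of the 67948 loci and 2.18% of the 81913 transcripts listed. Membership rested on the number of listed transcripts alone, whatever their counts. The size classes from 8 to 12 transcripts held 74, 42, 19, 12 and 15 loci, and a single locus had 41.

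Forsythia suspensa is a shrub of the olive family that flowers yellow and bears a fruit known in traditional medicine, and the series title names the prediction of genes of secondary metabolism as a purpose. The flower group is 1 library and the leaf group is 1 library, both from F. suspensa plants labelled as aged 2 years, collected outdoors in spring, with no treatment and with no genotype or cultivar named. Polyadenylated RNA was selected with oligo(dT) beads, and a strand-specific kit was used for the libraries. The labels leave unsaid whether one plant or several gave the tissue, so no spread between plants is known and no test across samples was possible.

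When a transcriptome is assembled from short reads without a genome, reads that overlap are joined in a graph, and each path through the graph is listed as a transcript. Branches in such a graph can come from alternative splicing, from alternative starts and ends, from the alleles of an outbred plant, from close gene copies or from sequencing errors. A locus with many transcripts is therefore a branched piece of the graph, and the number of its transcripts is not a number of spliced messages. The files pair no gene names with these identifiers and hold no sequences, so the tissue labels could not be checked against marker genes, and function is not described.

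Expected counts, the quantifier's estimates of how many fragments each transcript gave, summed to 7442016 in flower and 7234013 in leaf. All were whole numbers, also when recomputed from the deposited FPKM of transcripts in these loci with at most 30 counts and more than 5 FPKM, where the largest distance from a whole number was 0.0218 counts. Transcripts of 1 locus can share most of their sequence, and the whole counts do not record how a fragment that matched several of them was placed. How far that placement sets the even spread and the agreement in ratio described below was not tested.

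The many-transcript loci were a small part of both libraries. They took 65756 flower counts, which is 0.884% of the library (exact Clopper-Pearson 95% interval 0.877 to 0.890%), and 66167 leaf counts, which is 0.915% (0.908 to 0.922%). These intervals, like all intervals given here, cover counting error only. By TPM, a level per effective length scaled to the library, their share was 0.647% in flower and 0.682% in leaf. A locus was summed over its transcripts, and its summed TPM ranged from 0.83 to 233 in flower with a median of 24.5, and from 0 to 166 in leaf with a median of 31.1. Loci of 4 to 7 transcripts had medians of 20.5 TPM in flower and 21.1 TPM in leaf, and loci of 2 to 3 had 14.8 and 13.8 TPM. Loci of 1 transcript, by contrast, had a median of 3.07 TPM in flower and 2.48 TPM in leaf.

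Taken transcript by transcript, the members had fewer counts than transcripts of loci of 2 to 3 or 4 to 7, but more than those of loci of 1. The median transcript of these loci had 14 counts in flower and 15 in leaf, and its level was 2.06 TPM in flower and 2.58 TPM in leaf. In loci of 4 to 7 transcripts the medians were 30 and 29 counts, and in loci of 2 to 3 transcripts 44 and 40 counts. Loci of 1 transcript had medians of 4 and 3 counts. The median locus total was 214 flower counts and 258.5 leaf counts, beside 199 and 194 for loci of 4 to 7 transcripts. No flower count was assigned to 95 of the 1786 transcripts (5.3%) and no leaf count to 111 (6.2%), and 7 had none in either library. In loci of 4 to 7 transcripts these shares were 2.4% and 5.3%, and in loci of 1 transcript 10.1% and 23.1%. The largest count opposite a 0 among the 1786 transcripts was 59 in leaf and 83 in flower. The upper limit behind a 0 is 3 counts, or 0.403 CPM in flower and 0.415 CPM in leaf before scaling, where CPM is a count per 1000000 counts of its library. Just outside and just inside the limit of membership, the 106 loci of 7 transcripts had medians of 240.5 flower and 243 leaf counts and the 74 loci of 8 transcripts had 231 and 260.5.

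Transcripts of 1 locus differed widely in length. The shortest transcript had 224 bases, the median 1211.5 and the longest 8503, and 318 of the 1786 transcripts (17.8%) were at most 500 bases long. Transcripts of loci of 4 to 7 had a median of 1190 bases, and 15.3% were at most 500 bases long. Within a locus, the longest transcript was 5.06 times as long as the shortest at the median, and this ratio ran from 1.12 to 28.7. In loci of 4 to 7 transcripts the median ratio was 2.67, and such a ratio widens with the number of transcripts compared. The longest transcript of a locus had a median of 2032 bases against 1812.5 in that class, and the shortest a median of 358.5 bases against 562. Only 28 transcripts in 9 loci shared their exact length with another transcript of the locus.

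In most many-transcript loci no transcript dominated by level per effective length, and this level was spread over most of the transcripts. The spread was measured by the effective number of transcripts, which equals the number listed when all have equal level per effective length and falls to 1 when a single transcript holds everything. Among the 165 loci of at least 50 flower counts its median was 7.58, and among the 169 loci of at least 50 leaf counts it was 7.80. Divided by the number listed, the median was 0.872 in flower and 0.893 in leaf, beside 0.927 and 0.936 for loci of 4 to 7 transcripts, a class with fewer transcripts and more counts on each. The effective number was at least 0.5 of the number listed in 160 of the 165 loci in flower and in all 169 in leaf. The leading transcript held a median of 21.5% of its locus per effective length in flower and 19.8% in leaf. It held 50% or more in 5 loci in flower and in 2 in leaf. By count, with length left aside, more loci passed 50% in each library. In TR33108|c0_g1 the leading transcript held 44.0% in flower and 46.5% in leaf per effective length, but 56.5% and 57.3% by count. Over the 154 loci of at least 50 counts in each library, the effective number was higher in flower in 74 and higher in leaf in 80, with a median difference of -0.06 (flower minus leaf).

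**Figure D1:**
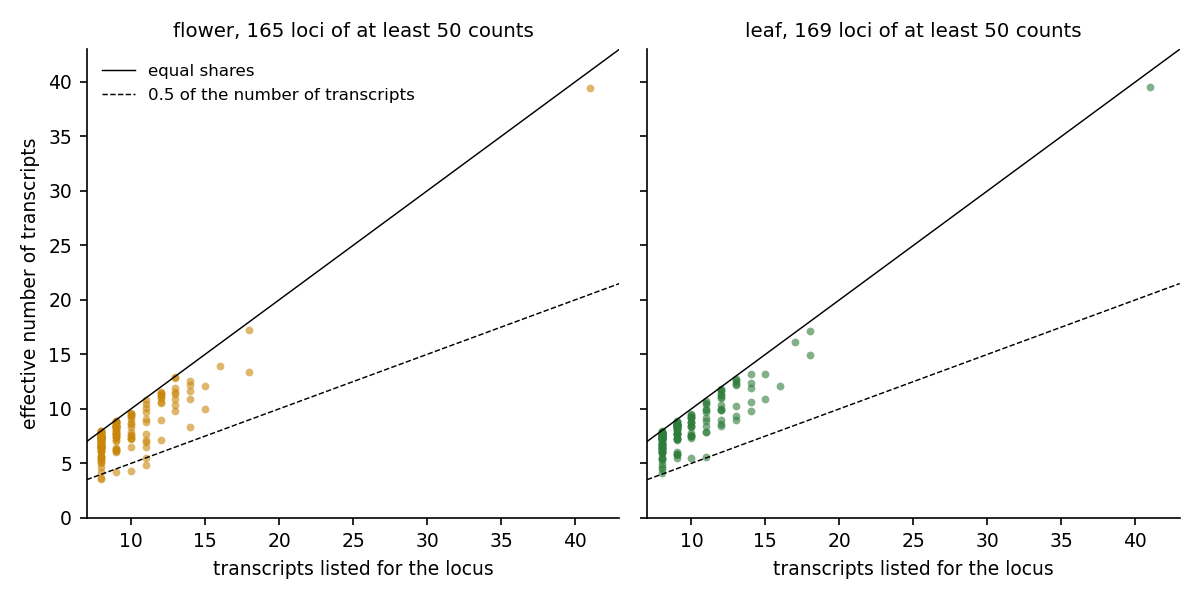
Effective number of transcripts (vertical axis) against the number of transcripts listed (horizontal axis) for each locus of at least 50 counts, in flower (left, 165 loci) and leaf (right, 169 loci). The solid line marks equal shares and the dashed line 0.5 of the number listed, and all but 5 points in flower lie on or above the dashed line, with the locus of 41 transcripts at an effective number of 39.5 in flower and 39.6 in leaf.

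Longer transcripts of a locus received more counts. The Spearman correlation of length with count across the transcripts of a locus had a median of 0.78 over 165 loci in flower and 0.75 over 169 in leaf, and was positive in 155 and 159 of them. This is a description across transcripts of 1 library, which share sequence and are not replicates. The scatter of the counts around proportionality to effective length was given as a dispersion, which is 1 for counting error alone. Its median was 4.72 in flower and 4.19 in leaf, and it was under 2 in 35 and 42 loci, so most loci were spread more unevenly than counting error alone gives. Loci of 4 to 7 transcripts had medians of 5.19 and 4.56. Their transcripts had means of 87.6 flower and 78.6 leaf counts, against 36.8 and 37.0 in the many-transcript loci. At equal unevenness this dispersion grows with the counts, so the 2 classes are not compared at like depth. The transcript with the highest level per length was the longest one in 20 of 154 loci in flower (13.0%) and in 21 in leaf (13.6%), and in loci of 4 to 7 transcripts in 33.7% and 32.5%. Ranked by count instead, the longest led in 33.8% and 35.1% of these loci, and in 50.9% and 52.7% of loci of 4 to 7. With more transcripts listed, the longest is 1 of more that could lead.

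The locus with the most transcripts, TR28964|c1_g1, was among the most evenly spread. Its 41 transcripts were numbered up to 44 and were 485 to 2769 bases long. They had 6 to 29 counts each in flower, with a mean of 18.1 ± 4.99 (SD over transcripts), and 2 to 18 in leaf, with a mean of 10.1 ± 3.13. The dispersion around proportionality to length was 1.17 in flower and 0.709 in leaf. The locus summed to 741 flower and 414 leaf counts, and 39 of the 41 transcripts had the higher scaled level in flower. The next 2 loci in number had 18 transcripts each. TR33681|c3_g1 summed to 1794 flower and 2256 leaf counts with an effective number of 17.2 in both libraries. TR33033|c0_g1 summed to 412 and 375 counts with effective numbers of 13.4 and 15.0, and its transcripts ranged from 257 to 2961 bases.

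Evenness was ranked over loci with a minimum of 100 counts per library, and TR30927|c0_g2 and TR30348|c0_g2 came highest. The first spread 158 flower counts over 8 transcripts with an effective number of 7.96, and 690 leaf counts with 7.92. The second spread 195 flower counts over 9 transcripts with 8.81, and 873 leaf counts with 8.91. The least even were TR31656|c0_g2 and TR33108|c0_g1. In the first, a transcript of 2173 bases took 540 of 693 flower counts and 687 of 947 leaf counts, while the other 7 transcripts had 0 to 65 flower counts and 1 to 78 leaf counts. In the second, a transcript of 1163 bases took 186 of 329 flower counts and 176 of 307 leaf counts, although its locus held 2 longer transcripts of 1497 and 1673 bases with 45 and 48 flower counts. The same transcript led in flower and leaf in both of these uneven loci.

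**Figure D2:**
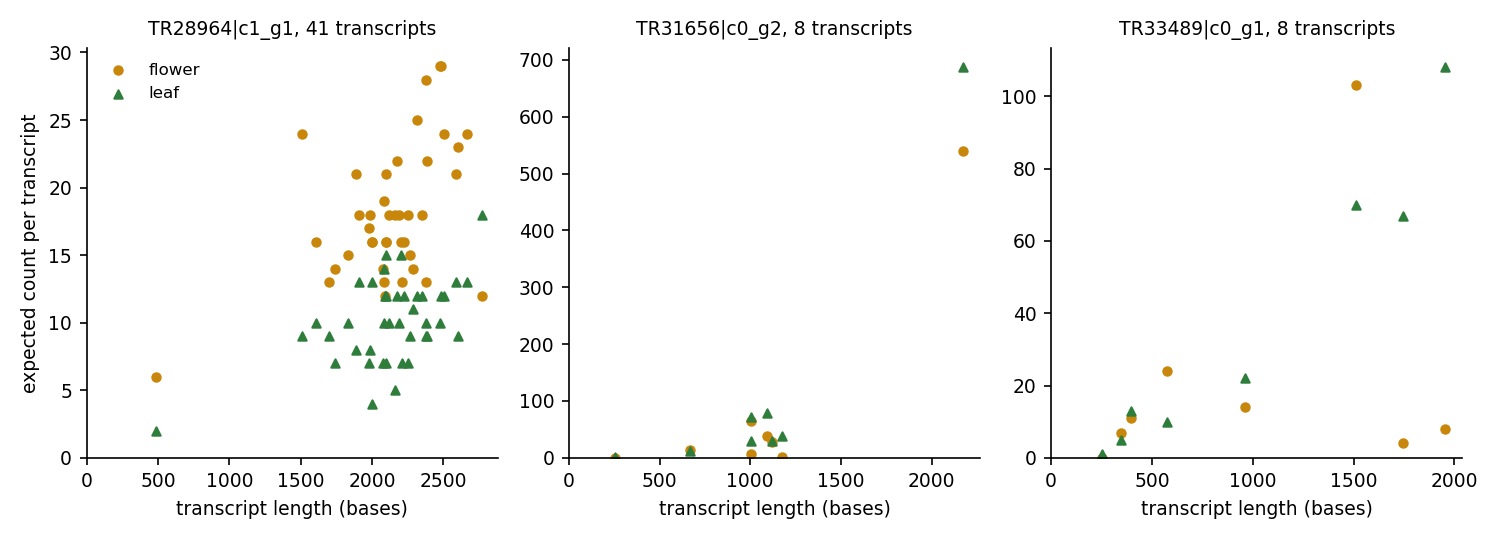
Expected counts per transcript (vertical axis) against transcript length in bases (horizontal axis) for 3 loci, with flower as circles and leaf as triangles. In TR28964|c1_g1 the 41 transcripts lie within 6 to 29 flower and 2 to 18 leaf counts, in TR31656|c0_g2 a single transcript stands at 540 and 687, and in TR33489|c0_g1 the transcripts of 1744 and 1955 bases have 4 and 8 flower counts beside 67 and 108 leaf counts.

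Which transcript led a locus often differed between the tissues. In 89 of the 154 loci of at least 50 counts in each library (57.8%) the transcript of highest level per length was not the same in flower and leaf. The share was 43.7% in loci of 4 to 7 transcripts and 22.9% in loci of 2 to 3. With at least 200 counts in each library, 37 of 77 loci (48.1%) differed. A locus with more transcripts has more that could lead, and where shares are near equal the leader can rest on few counts. In TR28964|c1_g1 the flower leader, i9, had 6 of 741 flower counts, and the leaf leader, i40, had 15 of 414 leaf counts. How many changes of leader counting error alone would give was not tested. In a single member locus did the leading transcript hold at least 50% per effective length in both libraries, and there it was the same transcript.

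Compared between the tissues, most many-transcript loci stood at similar levels. Counts were scaled with TMM factors, and log2 ratios here are log CPM in flower minus log CPM in leaf, with a prior count of 2. All 182 loci reached 1 CPM in at least 1 library. The ratio was under 2-fold in 123 of them (67.6%). Among loci that reached 1 CPM, that share was 66.6% for 4 to 7 transcripts, 61.4% for 2 to 3 and 45.1% for 1. The similar levels are thus shared with the class of 4 to 7 transcripts. The median log2 ratio was -0.07, beside 0.00 for loci of 4 to 7 transcripts and 0.19 for loci of 1 transcript. At least 4-fold higher in flower were 10 loci (5.49%), while over all loci compared 17.9% were. At least 4-fold higher in leaf were 16 loci (8.79%), while over all loci 10.1% were. Depth moves with the number of transcripts, since the median locus of 1 transcript had 4 flower counts. Among loci of at least 50 counts in at least 1 library, the flower-higher share was 5.56% of the many-transcript loci and 13.0% of all loci, and the leaf-higher share 8.89% and 9.9%. Loci of 4 to 7 transcripts had 7.56% flower-higher and 5.77% leaf-higher. The leaf excess depended on the limit of membership, as 34 flower-higher and 30 leaf-higher loci were counted among the 510 loci of 6 or more transcripts. With 1 library per tissue these shares describe the libraries, and the difference in share between classes was not tested.

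**Figure D3:**
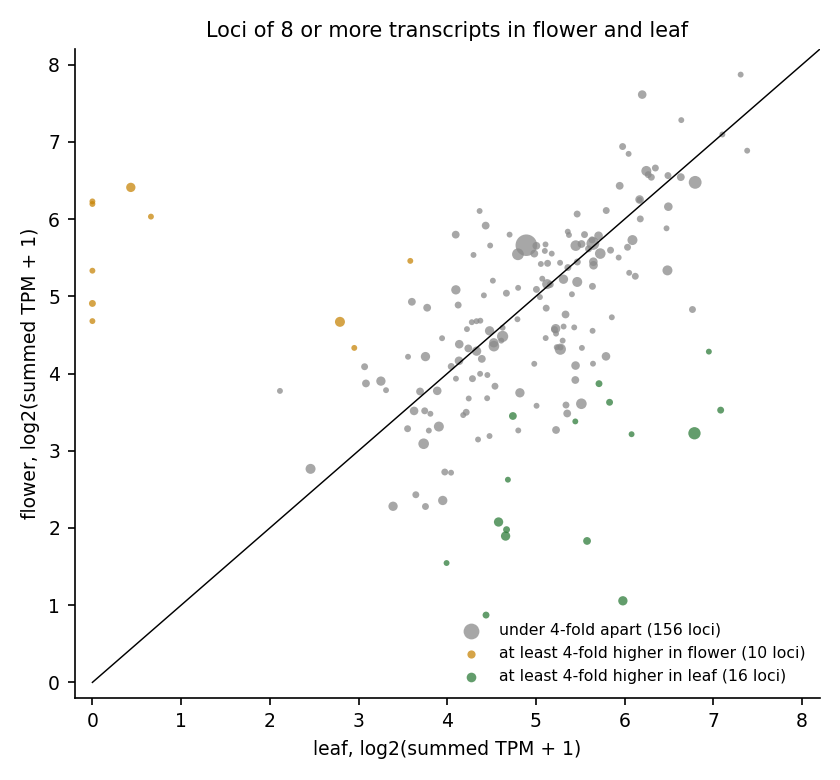
Summed level of each of the 182 loci in flower (vertical axis) and leaf (horizontal axis), both as log2(summed TPM + 1), with point size growing with the number of transcripts and the line marking equal levels. Of the 10 flower-higher loci 7 lie at the left edge with at most 3 leaf counts, whereas the 16 leaf-higher loci all lie above 0 in flower.

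The flower-higher loci fell into 2 sets. In 7 of the 10, the leaf library held at most 3 counts over all transcripts, with flower totals of 70 to 442 counts and 24.6 to 84.1 summed TPM, and log2 ratios of 5.13 to 6.76. The other 3 had 69 to 119 leaf counts and log2 ratios of 2.02 to 2.14, close to the 4-fold limit. Of the 182 loci, 5 were at 0 in leaf and 0 were at 0 in flower. Loci of 1 transcript were more often at 0 in leaf (23.1%) than in flower (10.1%) as well. Their depth was unlike that of the 5, with medians of 4 flower and 3 leaf counts. The 16 leaf-higher loci had 51 to 873 leaf counts and 6 to 195 flower counts, with log2 ratios of -5.59 to -2.01. In the 7 flower-higher loci with at most 3 leaf counts the longest transcript had 576 to 1240 bases, while in the other 3 flower-higher loci it had 2579, 2687 and 3678 bases. Over all 90 transcripts of flower-higher loci the median was 667 bases, beside 1165 bases over the 158 transcripts of leaf-higher loci and 1260 bases over the 1538 others.

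TR32631|c0_g1 had the largest log2 ratio, 6.76, with 221 flower counts (74.0 summed TPM) and 0 leaf counts over its 8 transcripts of 296 to 729 bases. Against the 3 counts that a leaf total of 0 allows, it was at least 69.2-fold higher in flower, a bound that carries no error of the flower count, and the lower limit of the exact conditional 95% interval was 55.8-fold. All 8 transcripts had flower counts, from 2 to 67, and their effective number in flower was 6.80. TR30538|c0_g1 followed with a log2 ratio of 6.73. It had 442 flower counts, 10 to 83 on each of its 12 transcripts, and 2 leaf counts on 2 of them, a ratio of 207-fold (exact conditional 95% interval 57.1 to 1719). In both loci every transcript had flower counts, while leaf counts were 0 for all 8 transcripts of the first and for 10 of the 12 of the second.

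In the other direction TR21873|c0_g1 had 9 flower and 499 leaf counts, which is 59.1-fold more in leaf after scaling (30.9 to 129.9), with a log2 ratio of -5.59. Its 12 transcripts were close in length, 1137 to 1375 bases, and had 0 to 2 counts each in flower and 26 to 58 in leaf. All 12 were at least 4-fold higher in leaf. TR33354|c0_g1 had 10 flower and 180 leaf counts, which is 19.2-fold more in leaf (10.2 to 40.7). Its 9 transcripts had 0 to 3 counts in flower and 4 to 28 in leaf. The 4 loci were picked for their extreme ratios, which the intervals do not allow for.

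The most abundant of these loci differed far less between the tissues. TR31772|c0_g2, of 8 transcripts, had the highest summed level in flower, 233 TPM, and the second highest in leaf, 157.5 TPM, from 3664 and 2400 counts, a ratio of 1.43-fold (1.36 to 1.51). Of its transcripts, 7 had 388 to 629 flower counts and 258 to 440 leaf counts, and the eighth, of 406 bases, had 3 and 9. TR31948|c0_g1, also of 8 transcripts, was highest in leaf with 166 TPM against 117 TPM in flower, from 1396 and 1093 counts, and all its transcripts had log2 ratios between -0.91 and -0.27. TR33050|c3_g1, of 11 transcripts, was second in flower with 195 TPM against 72.4 TPM in leaf, a ratio of 2.74-fold (2.43 to 3.09), and its log2 ratios ran from 0.21 to 2.34.

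The transcripts of a locus mostly agreed in tissue ratio. Of the 1786 transcripts, 1190 (66.6%) had at least 20 counts over both libraries together, a minimum that favours neither tissue. Each was set beside the rest of its locus, summed without it. Over these transcripts from 177 loci, the log2 ratio of the transcript and that of the rest were correlated (Pearson 0.86, Spearman 0.79), given as a description because transcripts of 1 locus share the rest and may share fragments. In 1001 transcripts (84.1%) the 2 ratios were within 2-fold of each other. Where the rest of the locus was at least 2-fold apart between the tissues, 352 of 361 transcripts (97.5%) lay on its side. In loci of 4 to 7 transcripts the corresponding values were 0.87, 0.81, 86.3% and 95.2%.

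**Figure D4:**
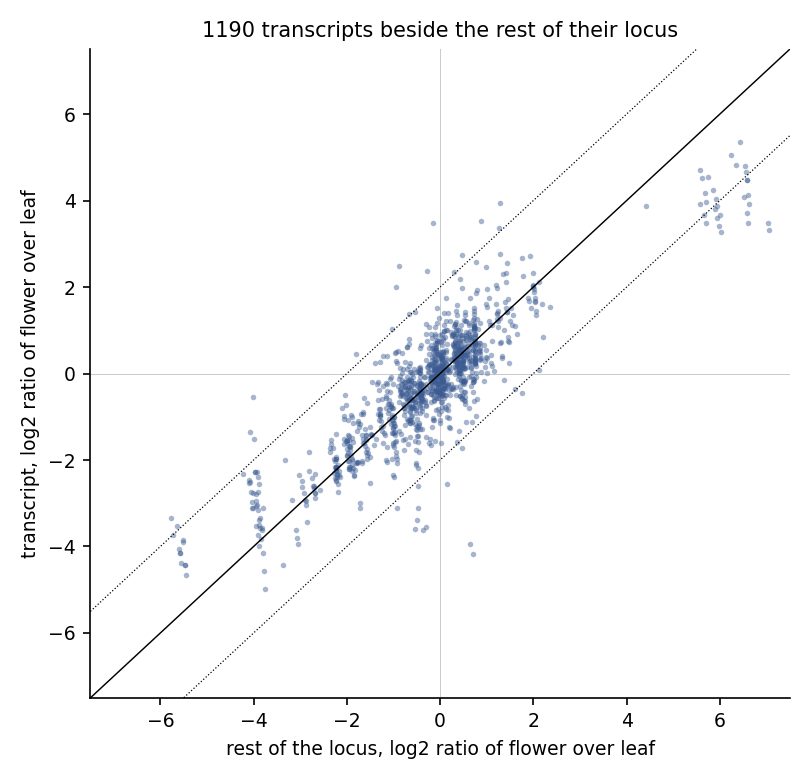
Log2 ratio of flower over leaf of each of 1190 transcripts (vertical axis) against that of the rest of its locus (horizontal axis), with the solid line marking equal ratios and dotted lines 4-fold either way. Most points follow the solid line, with 46 transcripts outside the dotted lines, and those at both ends lie nearer to 0 than the rest of their locus. A prior count of 2 draws ratios of low counts toward 0.

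At least 4-fold from the rest of the locus were 46 transcripts (3.87%). Of these, 21 belonged to loci that were themselves at least 4-fold apart, and all 21 lay on the side of their locus but nearer to 0. The other 25 came from 15 loci, and 12 of them lay on the opposite side of 0 from the rest. The prior count of 2 draws ratios of low counts toward 0, and its part in the 21 nearer to 0 was not tested.

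Counted as single transcripts with a CPM of at least 1, flower was higher by 4-fold or more in 85 of 1454 members (5.85%) and leaf in 170 (11.7%). Over all transcripts compared the shares were 15.6% and 9.79%. The 255 calls came from 74 loci, and 171 of them lay in the 26 loci that were at least 4-fold apart as sums. A locus with many transcripts enters such a count many times, so these calls are not independent of each other.

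The spread of transcript ratios within loci was set beside that of counting error. The SD of the log2 ratios was computed in the 163 loci with at least 3 transcripts of at least 20 counts, and its median was 0.48, with quartiles of 0.35 and 0.70. Counting error alone gives, by formula, a median SD of 0.41 on the same transcripts. Under their own counting value were 66 loci (40.5%), while 27 were at 2 times that value or more. The formula does not allow for the prior count drawing ratios of low counts toward 0, so it runs high where 1 tissue is near 0. In TR30538|c0_g1, with 2 leaf counts, it gave 1.02 beside an observed SD of 0.65. The SD between loci of their log2 ratios was 1.73. It rests in part on extreme loci, as the quartiles of the log2 ratio over all 182 loci were -0.81 and 0.43. In loci of 4 to 7 transcripts the median SD was 0.38, the counting value 0.35 and the SD between loci 1.68. The SD reached 1 or more in 15 of the 163 loci (9.20%) and in 9.81% of loci of 4 to 7 transcripts. A range of at least 4-fold between the extreme transcripts was seen in 40 loci (24.5%) against 12.5%, and a range widens with the number of transcripts compared.

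**Figure D5:**
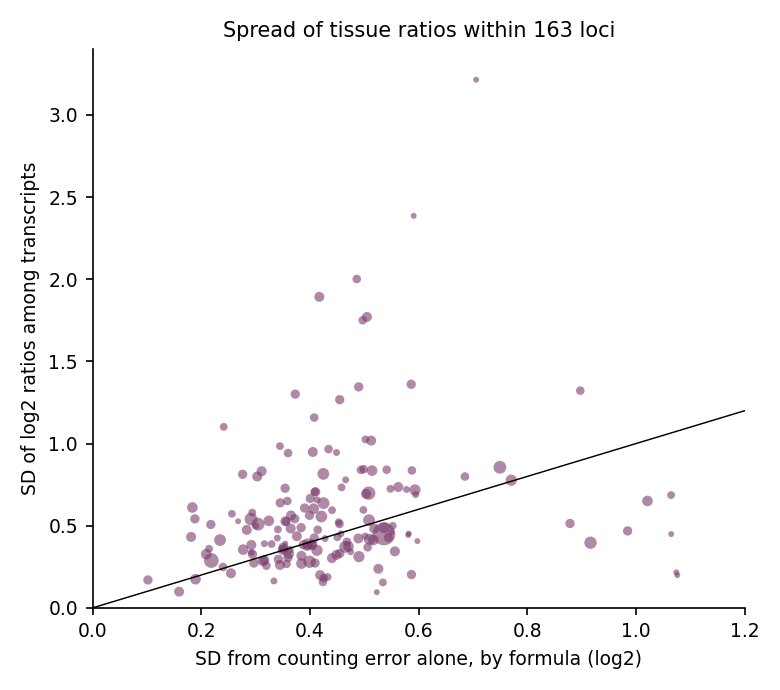
SD of the log2 ratio of flower over leaf among the transcripts of each of 163 loci (vertical axis) against the SD that counting error alone gives by formula (horizontal axis), with point size growing with the number of transcripts and the line marking equality. Points lie on both sides of the line, 66 of them under it, and the highest are TR34051|c1_g2 at 3.21, TR33512|c2_g2 at 2.39 and TR33489|c0_g1 at 2.00.

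At least 1 transcript 4-fold higher in flower was held by 20 of these 163 loci and at least 1 such in leaf by 35, while 109 held neither. Of 1172 loci of 4 to 7 transcripts, 135 held such a transcript in flower, 155 in leaf and 887 neither. A locus with more transcripts has more chances to hold one. Counted as single transcripts rather than loci, 12% of all transcripts of at least 20 counts were called in flower and 9.29% in leaf. Both were held by 1 of the 163 many-transcript loci, by 5 of the 1172 loci of 4 to 7 transcripts and by 4 of 865 loci of 2 to 3. The many-transcript locus was TR27330|c0_g1, and it is named for that after its values were seen. Its 8 transcripts summed to 1269 flower and 793 leaf counts. Its transcript i2, of 602 bases, had 118 flower and 15 leaf counts (log2 ratio 2.73), and i7, of 628 bases, had 0 and 28 (-3.95). The other 6, of 1666 to 2396 bases, had log2 ratios between -0.13 and 1.12. The opposite calls thus rested on the 2 shortest transcripts of the locus, which together held 118 of its flower counts and 43 of its leaf counts.

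The 3 loci of widest spread are given by transcript. TR34051|c1_g2 had 83 flower and 80 leaf counts over 8 transcripts, with an SD of 3.21 over 3 transcripts. Its transcript i8, of 787 bases, had 0 flower and 33 leaf counts (log2 ratio -4.17), while i7, of 1559 bases, had 32 and 10 (1.42) and i1, of 1426 bases, had 39 and 13 (1.37). A further transcript, i2, had 0 and 14. TR33512|c2_g2 had 84 and 75 counts over 9 transcripts, with i4, of 858 bases, at 45 and 6 (2.48) and i6, of 559 bases, at 6 and 23 (-1.72). TR33489|c0_g1 had 171 and 296 counts over 8 transcripts, a scaled level 1.84-fold higher in leaf (1.52 to 2.24), with an SD of 2.00 beside a counting value of 0.49. Its i6, of 1512 bases, had 103 flower and 70 leaf counts (0.46), whereas i1, of 1744 bases, had 4 and 67 (-3.60) and i7, of 1955 bases, had 8 and 108 (-3.54). These 3 loci were picked for their spread out of 163.

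The identifiers carried 2 further features. Transcript numbers were skipped in 144 of the 182 loci (79.1%), with 515 numbers missing in all, against 63.1% of loci of 4 to 7 transcripts and 30.9% of loci of 2 to 3. In TR30538|c0_g1, for example, 12 transcripts carried numbers up to 19. The transcripts behind the skipped numbers were not analysed here, and why they are not listed was not tested. The many-transcript loci also lay more often in a component of the assembly that held other loci, 100 of 182 (54.9%) against 41.4% of loci of 4 to 7 transcripts and 14.4% of all loci. They came from 180 components, and 2 components held a pair of them.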

How the data were processed

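The members and lists were chosen with earlier results of these data known. The submitters' processing notes name Trimmomatic and RSEM. Their versions, the aligner, the assembler and the reference are not stated in the labels or files. The authors deposited, per transcript and library, an expected count, a TPM and an FPKM, and an isoform percent that the deposited files give as 0 or 100 throughout. Expected counts were rounded, which altered none (0 had a fraction). The series-wide FPKM table equalled the per-library values for 81913 transcripts in each tissue (tolerance 0.005), and only the per-library files were used further.

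Counts were summed per locus and scaled with TMM factors of the transcript table, 1.02 for flower and 0.98 for leaf (edgeR 4.0.16, R 4.3.3). Unscaled, 1 count equals 0.134 CPM (flower) or 0.138 CPM (leaf). With 1 library per tissue, a size rule of 4-fold replaced a test. Effective numbers are the exponential of the Shannon entropy. PCR copies were not separated. Loci named are the 3 with the most transcripts, the 2 of highest summed TPM per tissue, the 2 of largest log2 ratio per direction (at least 10 CPM in the higher tissue), the 2 most and 2 least even, and the 3 of largest SD. Ratio, spread and effective-number steps were tested on simulated data, the spread only in loci simulated at equal levels in both tissues. Alternatives used DESeq2 1.42.0 size factors and other settings given at the end. Python 3.11.15, numpy 2.4.6, pandas 2.3.3, scipy 1.17.1 and matplotlib 3.10.9 were used.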

Additional observations from a re-analysis of the deposited data

How the results depend on the processing

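No paired analysis was possible because each tissue has 1 library, and no replicate could be left out. The 10 flower-higher loci were 7 to 10, and the 16 leaf-higher loci 14 to 17, under 11 alternatives (3 scalings, 2 CPM minima, another prior count, summed TPM or FPKM, removal of each locus' most abundant transcript, and a minimum of 50 counts added after seeing the data). Another minimum number of transcripts moved every count of loci, by its construction. With 6 or more transcripts (510 loci) there were 34 flower-higher and 30 leaf-higher loci, so the excess turned from leaf to flower. The effective number was then 5.94 in each tissue, the count share 2.95% in flower and 2.63% in leaf, the leading transcript differed in 225 of 423 loci, 4 loci held both directions, and the length ratio was 3.79. With 12 or more (35 loci) there were 2 and 4 loci, effective numbers of 11.4 and 11.5, shares of 0.156% and 0.177%, 20 of 28 loci with another leader, 0 loci with both directions, a length ratio of 5.71 and an SD of 0.54. The effective number was 6.80 in flower and 7.20 in leaf by count, and 6.89 and 7.39 by the inverse Simpson index. By TPM the share was 0.647% and 0.682%. At least 200 counts left 77 loci, of which 37 changed leader. The median SD was 0.56 at 10 counts per transcript, 0.32 at 100 counts (58 loci), 0.53 with a prior count of 0.5 and 0.37 with TPM. Loci with both directions numbered 2 at 10 counts and 0 at 100 counts. Where fewer loci or transcripts were compared, this follows from the setting, and the cause of the other moves was not tested. Depth limits most the 596 transcripts under 20 counts.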
